A study of Mus musculus with 4 samples.

Results

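The 10 genes described here encode enzymes that make, use, recycle or break down glutathione, together with enzymes that the transcription factor NRF2 is known to drive. They are Gclc, Gclm and Gss (synthesis), Chac1 (breakdown), Gsr (recycling), Gpx1 and Gpx4 (use), and Txnrd1, Hmox1 and Nqo1 (NRF2 enzymes). They were chosen by name, all 10 had a row among the 15768 genes of the deposited gene table, and all 10 passed the filter on low counts that kept 12222 genes. The RNA came from the JoMa1.3 line, mouse neural crest cells with conditional immortalisation, grown with epidermal and fibroblast growth factor, N2 and B27 supplements and chick embryo extract. Control siRNA cultures, labelled WT, received a non-targeting siRNA pool, and Lkb1 siRNA cultures, labelled Lkb1 KD, received a pool against Stk11, the gene for the kinase LKB1, at 60 nM in either case. RNA was taken at 72 h. Each group held 2 libraries, 1 in each of 2 labelled batches. The labels name jetPRIME and RNAiMax as transfection reagents without tying either to a sample. The comparison asks how transcripts respond when LKB1 is reduced.

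Glutathione is a tripeptide of glutamate, cysteine and glycine that cells keep at high concentration as a reductant. Glutamate-cysteine ligase joins the first pair of amino acids and sets the pace of synthesis, and glutathione synthetase adds glycine. Glutathione peroxidases spend glutathione on peroxides, and glutathione reductase restores it with NADPH. NRF2 is a transcription factor that the adaptor KEAP1 holds at a low level and that oxidants release. It binds antioxidant response elements near genes such as those of the ligase subunits, thioredoxin reductase and NQO1. CHAC1 cleaves glutathione inside the cell, and its gene is a target of ATF4, the transcription factor of the amino acid and unfolded protein stress responses. Neural crest cells are known to be sensitive to oxidative stress.

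Stk11 (gene ID 20869) was at 52.7 and 52.1 FPKM (fragments scaled to gene length and library size) in the control siRNA libraries of batches 1 and 2, against 36.3 and 36.9 FPKM after Lkb1 siRNA. It fell by 31.7%, with a 95% confidence interval from -38.4 to -24.3% (edgeR adjusted p = 0.0378), so that the knockdown was partial. The libraries held 17426719 to 19324675 counts. Of 14 neural crest markers 12 had values, and Snai2 (53.2 FPKM in control siRNA), Tfap2b (35.9 FPKM) and Twist1 (30.3 FPKM) were among the higher ones. In edgeR with batch as a replicate block, 6.99% of all genes passed at an adjusted p of 0.05 as lower and 6.59% as higher. Of 11 neural crest markers tested, Snai2 and Erbb3 passed as lower in that fit and Pax3 as higher. Their log2 fold changes were -0.17, -0.65 and 0.19. The neuronal marker Tubb3 also passed as higher with the block, with a log2 fold change of 0.32. Ednrb was at 0 FPKM in the control siRNA libraries, Ngfr at 0.655 FPKM, and Sox10 and Foxd3 were not analysed here. Of the 5 smooth muscle markers, whose summed level was 382 to 409 FPKM in control siRNA and 308 to 327 FPKM in Lkb1 siRNA libraries, Acta2 and Tagln passed as lower in the fit with the replicate block, and Cnn1 and Myh11 stayed below 0.1 FPKM on average in both groups. Des, the remaining marker, was at 0.25 and 0.15 FPKM in control siRNA and 0.31 and 0.45 FPKM in Lkb1 siRNA libraries and did not pass. Of the 6 fibroblast markers, summing to 1259 and 1507 against 1104 and 1286 FPKM, Col1a1, Col1a2, Col3a1 and Dcn also passed as lower with the block. The part of these shifts in the results below was not tested. In RNA from whole cultures, fewer cells of a type and less RNA per cell cannot be told apart.

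The promoters of Chac1, Gclm and Txnrd1 are shown because Chac1 had the largest difference of the 10 genes and because the other pair held a copy of the NRF2 motif. Sequences were from RefSeq (GRCm38.p6), each 300 bases from 250 before an annotated start to 50 after it, on the gene's own strand. For Chac1 that start was the start of the gene, 119351242. In the RefSeq gene table Gclm and Txnrd1 started elsewhere, at 122245487 and 82833951. Positions given below are relative to the annotated start of the window. Of the 10 genes, 7 had an entry, with 12 windows in all. Gclc, Gsr and Hmox1 had none. Capitals mark a match on either strand to the antioxidant response element core TGACNNNGC, to the core TGATGNAA of the composite element that ATF4 and C/EBP proteins share, or to the related form TGANGCAA, which was added after the Chac1 sequence was read and overlaps the second motif.
Chac1, chr2:119350992-119351291, plus strand: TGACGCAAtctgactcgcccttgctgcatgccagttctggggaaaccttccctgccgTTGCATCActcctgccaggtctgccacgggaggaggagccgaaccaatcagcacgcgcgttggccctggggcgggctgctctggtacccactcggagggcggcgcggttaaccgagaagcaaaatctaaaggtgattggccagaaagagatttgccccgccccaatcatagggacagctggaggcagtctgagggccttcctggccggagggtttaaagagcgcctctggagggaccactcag
Gclm, chr3:122245307-122245606, plus strand: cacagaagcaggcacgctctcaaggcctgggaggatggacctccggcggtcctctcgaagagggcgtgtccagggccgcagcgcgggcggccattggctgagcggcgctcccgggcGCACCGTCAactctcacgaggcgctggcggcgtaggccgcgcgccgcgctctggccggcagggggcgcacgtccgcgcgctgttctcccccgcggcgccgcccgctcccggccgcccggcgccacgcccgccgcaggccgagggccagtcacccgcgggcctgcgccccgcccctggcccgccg
Txnrd1, chr10:82858956-82859255, plus strand: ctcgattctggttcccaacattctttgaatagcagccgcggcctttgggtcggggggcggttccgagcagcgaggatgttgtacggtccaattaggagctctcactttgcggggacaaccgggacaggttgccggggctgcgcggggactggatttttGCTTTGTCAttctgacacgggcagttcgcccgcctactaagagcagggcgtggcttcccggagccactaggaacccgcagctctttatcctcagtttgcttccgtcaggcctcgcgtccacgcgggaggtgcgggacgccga

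The Chac1 window held TTGCATCA, the composite core on the opposite strand, from position -193 relative to the start, and TGACGCAA, the related form, from position -250. The composite core was in 3.97% and the related form in 3.69% of all 32851 windows of this length. The Gclm window held the antioxidant response element core on the opposite strand from position -134, and the Txnrd1 window from position -92. That core was in 12.4% of all windows. The remaining 9 windows, of Gss, Gpx1, Gpx4, Nqo1 and Txnrd1, held none of the 3 motifs. A match is a stretch of letters and was not tested as a binding site.

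The 10 genes spanned a wide range of levels, and their order was nearly the same in every library. Gpx4 was highest with a mean of 414 ± 21.6 FPKM over all libraries (SD, n = 4), followed by Gpx1 with 351 ± 23.1 FPKM, above 98.7% and 98.4% of the listed genes. Txnrd1 was next at 89.3 ± 9.84 FPKM, then Gsr at 49.6 ± 3.76 FPKM and Gclc at 28.9 ± 3.53 FPKM. Gclm, at 21.7 ± 1.57 FPKM, and Gss, at 20.8 ± 1.1 FPKM, overlapped over the libraries and could not be ordered. Chac1, at 15.6 ± 4.12 FPKM, likewise overlapped Hmox1, at 14.1 ± 1.45 FPKM. Nqo1 was lowest at 4.87 ± 0.299 FPKM. The peroxidases thus stood far above the enzymes that supply them with glutathione, and every other neighbour in this order was separate over all 4 libraries.

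**Figure D1:**
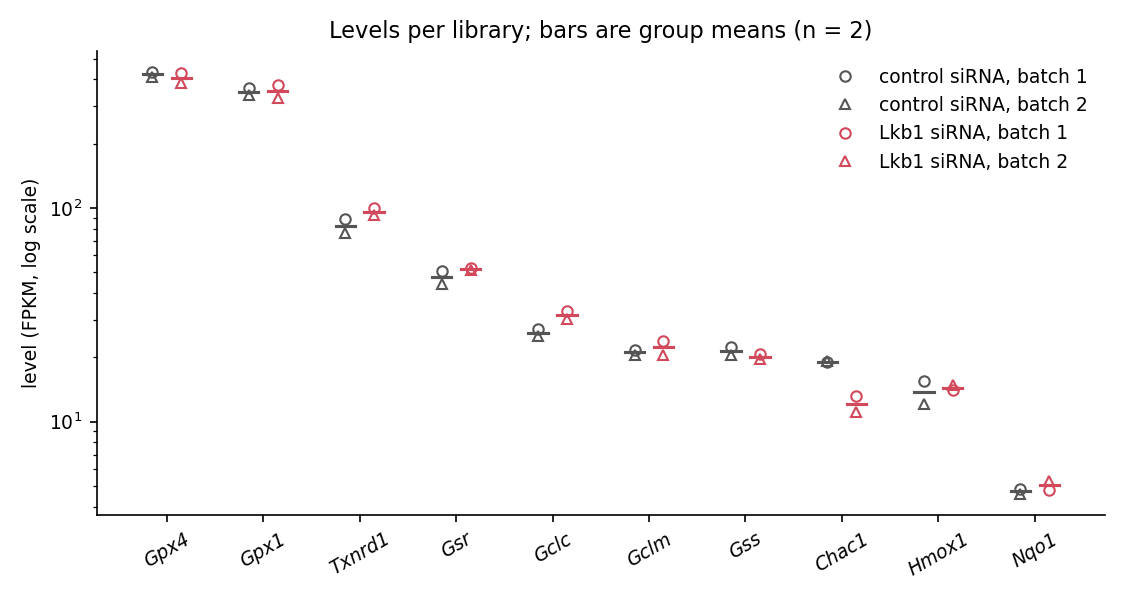
Level of each gene in FPKM (log scale) in each library, with circles for batch 1, triangles for batch 2 and bars for the mean of the 2 libraries of a group. Chac1 is at 19.1 FPKM in both control siRNA libraries and at 13.2 and 11.1 FPKM after Lkb1 siRNA, while the other 9 genes lie close together between groups.

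None of the 10 genes passed edgeR's quasi-likelihood test at an adjusted p of 0.05 over all genes, against 0.0818% of all genes tested, 0.0491% as lower and 0.0327% as higher. At an unadjusted p under 0.05, Chac1 and Gclc passed edgeR's test, 2 of the 10 against 11.1% of all genes. DESeq2 called 1 of the 10 without the batch term, Chac1 as lower, and 47 of all genes, 31 of them as lower. With the batch term it called none of the 6 that received an adjusted p, and gave none to Chac1, Gss, Hmox1 and Nqo1. The labels pair the libraries by batch, and with batch as a replicate block in edgeR 3 of the 10 passed, Chac1 as lower and Gclc and Txnrd1 as higher. That fit called 13.6% of all genes, 6.99% as lower and 6.59% as higher. Its SE need not follow how alike the 2 batches of a gene are. The SE was 0.0538 for Gclc, with log2 fold changes of 0.24 and 0.25 in the 2 batches. For Gsr, with -0.01 and 0.19, it was 0.0505. In CPM (counts scaled to library size) the groups did not overlap for 4 of the 10, Chac1 and Gss with lower and Gclc and Txnrd1 with higher values, against 42.7% of all genes, 21.4% lower and 21.2% higher. The median log2 fold change of the 10 genes was 0.03, and over all genes tested it was 4.94e-04.

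Chac1 (gene ID 69065), the enzyme that cleaves glutathione in the cytosol, was lower after Lkb1 siRNA in both batches. Batches 1 and 2 gave 19.07 and 19.14 FPKM with control siRNA, and 13.19 and 11.08 FPKM with Lkb1 siRNA. The groups did not overlap, and the control libraries were closer to each other than the Lkb1 siRNA libraries were. The libraries held 456 and 473 counts of Chac1 in control siRNA and 292 and 261 in Lkb1 siRNA, a difference of -38.2% with a 95% confidence interval from -48.4 to -26.1%.

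On the log2 scale the difference of Chac1 was -0.70 (SE 0.115, edgeR adjusted p = 0.0847, or adjusted p = 1.08e-11 with the replicate block). It was -0.58 in batch 1 and -0.81 in batch 2. Only 0.18% of the genes tested had a smaller p in the fit without the block. Chac1 passed in 7 of 14 alternative fits, did not pass in 6 and received no adjusted p in 1, DESeq2 with the block. With 1 library left out, it passed when that was control siRNA replicate 1 or 2 (edgeR adjusted p = 0.0044 and 0.00257) or Lkb1 siRNA replicate 1 (0.00142), and did not when it was Lkb1 siRNA replicate 2 (0.124). Such a fit has 1 library in an arm, which is assumed to vary like the group that keeps both, so these 4 fits are not independent checks. The log2 fold change ranged from -0.83 to -0.57 over the 14 fits.

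**Figure D2:**
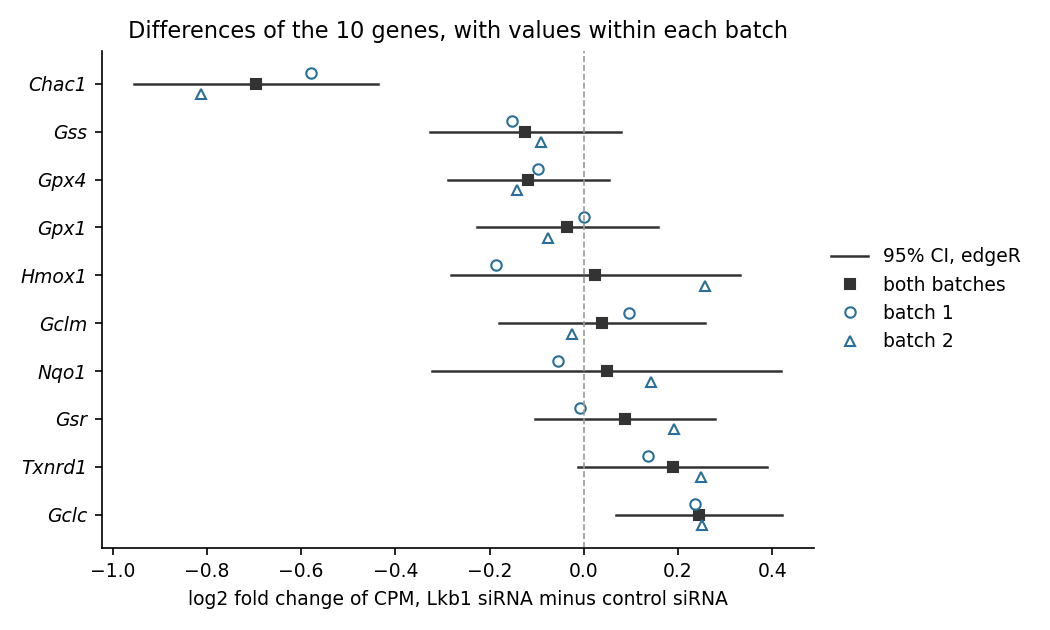
Log2 fold change of CPM, Lkb1 siRNA minus control siRNA, of each gene: squares with lines show the edgeR estimate over both batches with its 95% confidence interval, circles batch 1 and triangles batch 2. Chac1 at -0.70 stands apart from the others, which lie between -0.12 and 0.24, and 5 of the 10 genes have the same sign in both batches, as do 67.2% of all genes tested.

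The 3 genes of glutathione synthesis differed in sign and size. Gclc (14629), the catalytic subunit of glutamate-cysteine ligase, was at 27.10 and 25.06 FPKM in control siRNA and at 33.06 and 30.36 FPKM in Lkb1 siRNA libraries. The Lkb1 siRNA libraries were the higher ones in both batches and the groups did not overlap. The log2 fold change was 0.24 (SE 0.0782, edgeR adjusted p = 0.319, or adjusted p = 2.08e-04 with the replicate block), with 0.24 in batch 1 and 0.25 in batch 2. In percent this was 18.4, with a 95% confidence interval from 4.80 to 33.8. Leaving out a library gave 0.18 to 0.31, with no call among these 4 fits.

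Gclm (14630), the modifier subunit that makes the ligase more efficient, was at 21.64 and 20.56 FPKM in control siRNA and at 23.92 and 20.60 FPKM in Lkb1 siRNA libraries. Its groups overlapped in CPM and it did not pass (log2 fold change 0.04, SE 0.0968, edgeR adjusted p = 0.909). The sign differed between the batches, at 0.10 and -0.02, and turned without control siRNA replicate 2 (-0.012) or Lkb1 siRNA replicate 1 (-0.073). Gss (14854), glutathione synthetase, was at 22.24 and 20.54 FPKM in control siRNA and at 20.73 and 19.58 FPKM in Lkb1 siRNA libraries. Its log2 fold change was -0.12 (SE 0.0904, edgeR adjusted p = 0.642, or adjusted p = 0.281 with the replicate block). The groups did not overlap in CPM but did in FPKM. Gss overlaps Gssos2 in the RefSeq gene table and, as the sources used here do not state that counting used the strand, reads of that partner cannot be told apart from its own. The same holds for Gclm with Gm46822 and Gm6061, for Gsr with Gm24727 and Gm17803, and for Txnrd1 with Gm38560 and Eid3.

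Ratios within a library show how the levels of the synthesis genes shifted against each other. Gclc over Gclm was 1.25 and 1.22 in control siRNA and 1.38 and 1.47 in Lkb1 siRNA libraries. Gclc over Gss was 1.22 in both control libraries and 1.59 and 1.55 after Lkb1 siRNA. The ratio of the degrading to the rate-setting enzyme, Chac1 over Gclc, was 0.704 and 0.764 in control siRNA and 0.399 and 0.365 in Lkb1 siRNA libraries. The groups did not overlap in any of these ratios. For Chac1 over Gclc this follows from the levels, as neither gene overlapped and they went in opposite directions. All of these ratios share Gclc, so they are no further result beside the single genes. The share of gene pairs without overlap was not counted, and of single genes it was 42.7% in CPM. With 2 libraries a group an exact permutation test, two-sided, cannot go below p = 0.333.

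The peroxidases and the reductase differed little. Gpx1 (14775), the abundant cytosolic peroxidase, was at 362.9 and 337.3 FPKM in control siRNA and at 377.6 and 327.2 FPKM in Lkb1 siRNA libraries, and the groups overlapped. Its log2 fold change was -0.04 (SE 0.0854, edgeR adjusted p = 0.907), and its 95% confidence interval ran from -0.23 to 0.16. It was 0.0012 in batch 1 and -0.08 in batch 2. Gpx4 (625249), which reduces lipid peroxides in membranes and restrains ferroptosis, was at 433.8 and 412.1 FPKM in control siRNA and at 426.2 and 384.7 FPKM in Lkb1 siRNA libraries. Its log2 fold change was -0.12 (SE 0.0759, edgeR adjusted p = 0.59, or adjusted p = 0.0833 with the replicate block), -0.10 in batch 1 and -0.14 in batch 2.

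Both peroxidase genes are short, in the tenth of tested genes with the shortest transcripts, whose median log2 fold change was -0.07. With the trend of fold change with length removed, Gpx4 was at -0.05 and Gpx1 at 0.014. Gpx4 also has the pseudogenes Gpx4-ps1 and Gpx4-ps2 in RefSeq, so its reads may be shared. Gsr (14782), glutathione reductase, was at 50.86 and 44.01 FPKM in control siRNA and at 52.26 and 51.20 FPKM in Lkb1 siRNA libraries. In batch 1 it differed by -0.01 and in batch 2 by 0.19, and over both its log2 fold change was 0.09 (SE 0.0847, edgeR adjusted p = 0.74). Control siRNA replicate 2 was the low library of the 4, and without it the value was -0.03.

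Of the NRF2 enzymes, Txnrd1 was higher in both batches and Hmox1 and Nqo1 were not. Txnrd1 (50493), the cytosolic thioredoxin reductase, was at 88.51 and 76.45 FPKM in control siRNA and at 100.1 and 92.25 FPKM in Lkb1 siRNA libraries, without overlap. Its log2 fold change was 0.19 (SE 0.0889, edgeR adjusted p = 0.468, or adjusted p = 0.00161 with the replicate block), 0.14 in batch 1 and 0.25 in batch 2. Without control siRNA replicate 2 the log2 fold change was 0.07, and without control siRNA replicate 1 it was 0.31 (edgeR adjusted p = 0.769 and 0.0523).

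Hmox1 (15368), haem oxygenase 1, was at 15.48 and 12.11 FPKM in control siRNA and at 14.06 and 14.77 FPKM in Lkb1 siRNA libraries. The control libraries lay on both sides of the Lkb1 siRNA libraries, so that the difference was -0.19 in batch 1 and 0.26 in batch 2. The log2 fold change over both was 0.02 (SE 0.136, edgeR adjusted p = 0.965). Nqo1 (18104), a quinone reductase, was at 4.83 and 4.59 FPKM in control siRNA and at 4.76 and 5.29 FPKM in Lkb1 siRNA libraries. It had 107 to 129 counts a library, the fewest of the 10 genes, and a log2 fold change of 0.05, whose 95% confidence interval spanned -0.32 to 0.42 (edgeR adjusted p = 0.938). The interval of Hmox1 ran from -0.28 to 0.33, so that differences within these intervals were not detectable for either gene.

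The batches differed in several of the same genes. Between batch 2 and batch 1, with the siRNA group in the fit, Gpx1 and Txnrd1 fell, by 0.17 and 0.18 on the log2 scale (SE 0.0484 each, edgeR adjusted p = 0.00767 and 0.00381). Gpx1 went from 279 to 249 CPM and Txnrd1 from 295 to 261 CPM on average. Of all genes 12.9% passed, 6.62% as lower and 6.3% as higher in batch 2. The other 8 genes did not pass. Of these, Nqo1 was at 0.07 and the remaining 7 were between -0.16 and -0.11. For Txnrd1 the batch difference was about as large as the difference between the siRNA groups. In an edgeR fit with batch alone none of the 10 passed. The batch term of DESeq2 called none either, with adjusted p of 0.197 for Gpx1 and 0.162 for Txnrd1. It gave no adjusted p to Chac1, Gclm, Gss, Hmox1 and Nqo1.

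Genes that supply cysteine, the scarce building block of glutathione, included several that were lower. All 7 listed genes were tested, none passed without the block, and with the block 4 passed as lower and 1 as higher, against 6.99% and 6.59% of all genes. DESeq2 with the block called none of the 7, 4 of which, Slc7a11 and Cth among them, received no adjusted p. Their median log2 fold change was -0.22. Slc7a11, the cystine importer, was at only 1.12 and 1.04 FPKM in control siRNA and 0.62 and 0.66 FPKM in Lkb1 siRNA libraries (log2 fold change -0.77, SE 0.154, edgeR adjusted p = 0.133, or adjusted p = 5.33e-06 with the block). Cth, which makes cysteine from cystathionine, was at 27.60 and 24.49 against 20.52 and 17.84 FPKM (-0.47, SE 0.106, edgeR adjusted p = 0.182, or adjusted p = 2.69e-08 with the block). Slc3a2, the partner chain of the importer, and Slc1a4, a neutral amino acid carrier, also passed as lower with the block. Cdo1, which oxidises cysteine, passed as higher with it, from 0.68 and 0.62 to 1.39 and 1.31 FPKM (1.00, SE 0.30, edgeR adjusted p = 0.3, or adjusted p = 0.0211 with the block).

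Of 12 listed genes of glutathione breakdown and recovery 7 were tested, and none passed without the block. Lap3 and Anpep, both aminopeptidases, passed as lower with it, 28.6% against 6.99% of all genes. DESeq2 with the block called none of the 7, 5 of which received no adjusted p. The log2 fold changes of Lap3 and Anpep were -0.17 and -0.16 (SE 0.0749 and 0.0974, edgeR adjusted p = 0.439 and 0.561). The list's median was 0.09, and -0.03 without control siRNA replicate 2. Chac2, the close relative of Chac1, was at 7.58 and 8.31 FPKM in control siRNA and 8.84 and 9.04 FPKM in Lkb1 siRNA libraries (0.12, SE 0.141, edgeR adjusted p = 0.791), and it is named outside the rule for named genes, after its values were seen.

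Of the other glutathione peroxidases only Gpx8 was tested. It was at 73.90 and 81.66 FPKM in control siRNA and 67.29 and 73.46 FPKM in Lkb1 siRNA libraries (log2 fold change -0.19, SE 0.0823, edgeR adjusted p = 0.448, or adjusted p = 0.0295 with the block), and it did not pass with the block once the length trend was removed. Of 17 glutathione S-transferases tested, which attach glutathione to reactive compounds, 1 passed with the block, 5.88% as higher against 6.59% of all genes, a share near the background. This was Gsta4, from 77.95 and 76.38 to 91.52 and 96.86 FPKM (0.24, SE 0.0738, edgeR adjusted p = 0.308, or adjusted p = 0.00192 with the block). Several S-transferases are near-identical copies, so the division of reads among them is uncertain. The list's median was -0.07, and 0.07 without control siRNA replicate 2.

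**Figure D3:**
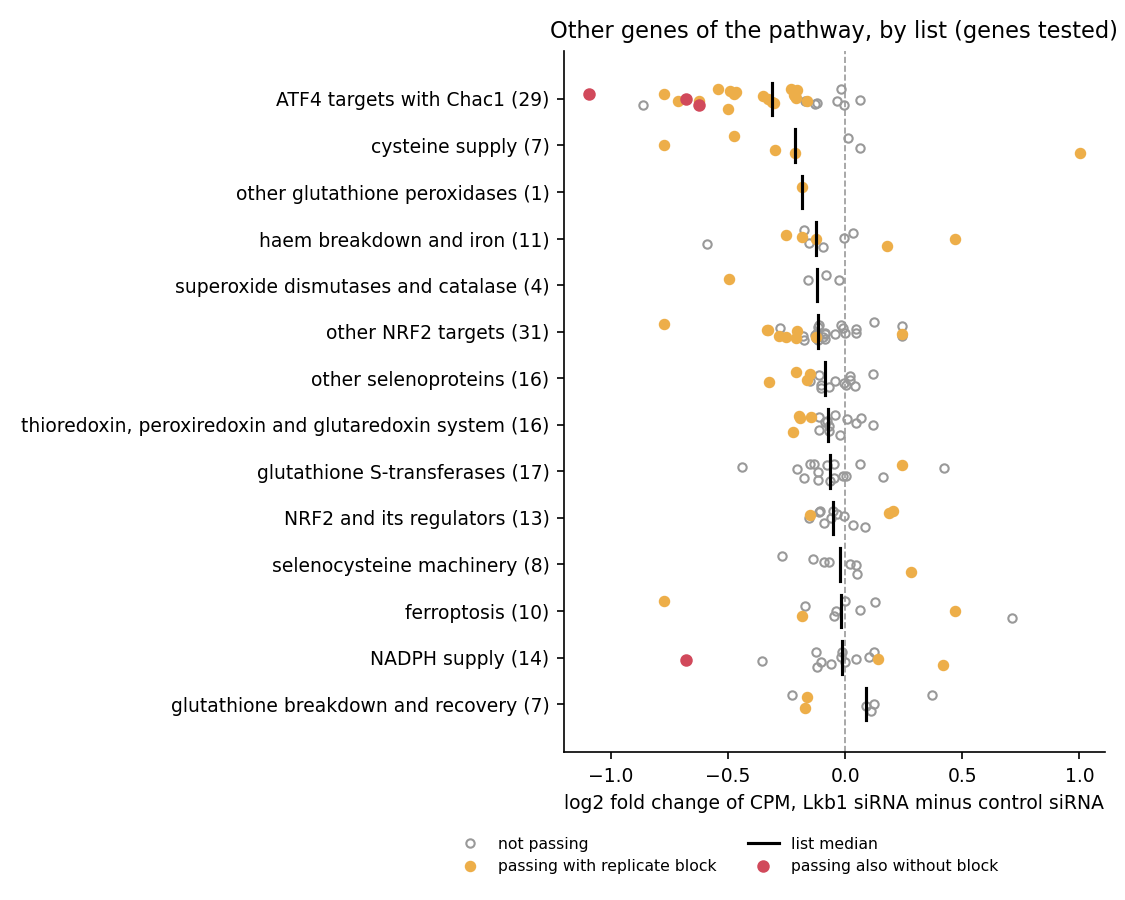
Log2 fold change of CPM, Lkb1 siRNA minus control siRNA, of the tested genes of 14 pathway lists, with the number tested in brackets, black bars for list medians, yellow for genes passing with the replicate block and red for genes passing also without it. The ATF4 target list lies lowest with a median of -0.31, and the NRF2 target list has a median of -0.12.

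Of 31 other known NRF2 targets tested, 24 were lower and 7 higher on average, with a median log2 fold change of -0.12, and none passed without the block. With it 8 passed as lower, 25.8% against 6.99% of all genes, and 1 as higher, 3.23% against 6.59%. Those with the smallest p after Slc7a11 were Aldh3a1, an aldehyde dehydrogenase (-0.28, SE 0.0823), Gsta4 and Pir, an iron-binding nuclear protein (-0.34, SE 0.107), with edgeR adjusted p from 0.283 to 0.317. Tkt of the pentose phosphate pathway, the aldose reductase relative Akr1b8, the epoxide hydrolase Ephx1, Blvrb and the ferritin chain Fth1 completed the 8. With the length trend removed as well, 7 passed as lower and 1 as higher. DESeq2 with the block called 2, Aldh3a1 and Tkt, both as lower, and gave no adjusted p to 12 of the 31. Over all genes it called 124, 80 of them as lower.

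NRF2's own gene and most of its regulators differed little. Nfe2l2, which encodes NRF2, was at 73.41 and 65.96 FPKM in control siRNA and 77.69 and 73.80 FPKM in Lkb1 siRNA libraries (log2 fold change 0.08, SE 0.0789, edgeR adjusted p = 0.733). Keap1 was at 26.18 and 28.92 against 26.13 and 25.88 FPKM (-0.11, SE 0.0715, edgeR adjusted p = 0.608). Neither passed with the block. Of the 13 genes tested, with a median of -0.05 (0.07 without control siRNA replicate 1), none passed without the block. With it Mafg, a small MAF partner of NRF2, and Bach1, a repressor at the same elements, passed as higher, 15.4% against 6.59% of all genes. Nfe2l1, a relative of NRF2, passed as lower, 7.69% against 6.99% of all genes, a share near the background. With the length trend removed as well, Mafg and Nfe2l1 passed and Bach1 did not. DESeq2 with the block called none of the 13, with no adjusted p for 3. The log2 fold changes of Mafg, Bach1 and Nfe2l1 were 0.19, 0.21 and -0.15 (SE 0.066, 0.0873 and 0.0659, edgeR adjusted p = 0.358, 0.427 and 0.442). Nfe2l2 and Keap1 are named outside the rule for named genes.

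Txnrd1 keeps thioredoxins reduced, and these pass electrons on to peroxiredoxins. Of 16 thioredoxin, peroxiredoxin and glutaredoxin genes 12 were lower and 4 higher on average, with a median of -0.07, and none passed without the block. With it 4 passed as lower, 25.0% against 6.99% of all genes, and none as higher, against 6.59%. DESeq2 with the block called none of the 16, 3 of which received no adjusted p. The 4 that passed as lower were the mitochondrial thioredoxin Txn2 (-0.22, SE 0.0774) and the peroxiredoxins Prdx4 (-0.20, SE 0.0764), Prdx5 (-0.19, SE 0.0663) and Prdx6 (-0.14, SE 0.0754). Without the block their edgeR adjusted p ran from 0.344 to 0.513. With the length trend removed, 3 passed with the block. Of the 4 superoxide dismutase and catalase genes tested, 1 passed with the block, as lower, 25.0% against 6.99% of all genes. This was Sod3, the extracellular dismutase (-0.50, SE 0.15, edgeR adjusted p = 0.303 without the block).

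Gpx1, Gpx4 and Txnrd1 are selenoproteins, which carry selenocysteine at the active site. Of 16 other selenoprotein genes tested 11 were lower on average, with a median of -0.08. None passed without the block, and with it Selenoh, Selenow, Selenon and Selenom passed as lower, 25.0% against 6.99% of all genes, at -0.21, -0.16, -0.15 and -0.32 (SE 0.0753, 0.0675, 0.0681 and 0.152, edgeR adjusted p from 0.358 to 0.464). With the length trend removed as well, 1 of the 16 passed, and DESeq2 with the block called none, with no adjusted p for 7 of them. Of 8 genes of the machinery that inserts selenocysteine, 1 passed with the block, as higher, 12.5% against 6.59% of all genes. This was Secisbp2, which binds the signal in selenoprotein mRNAs (0.28, SE 0.11, edgeR adjusted p = 0.388 without the block). None of the 8 passed with the length trend removed.

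Most ATF4 targets had the sign of Chac1. Of 29 listed targets other than Chac1, 28 were lower on average, with a median log2 fold change of -0.31. Trib3, Atf5 and Aldh1l2 fell (edgeR adjusted p = 0.026, 0.0378 and 0.0378), and with the block 21 passed as lower, 72.4% against 6.99% of all genes, and none as higher, against 6.59%. DESeq2 with the block called 8, all as lower, and gave no adjusted p to 12 of the 29, Trib3 among them. Over all genes that fit called 124, 80 of them as lower, and 9764 genes received no adjusted p. Without the block, 1 target (Trib3) passed with library size scaling and 1 (Trib3) under a mean CPM filter of 5, and none in either limma fit. The list was chosen with earlier results of these data known and is no independent evidence of its direction. Leaving out a library gave medians from -0.42 (without Lkb1 siRNA replicate 1) to -0.22 (without Lkb1 siRNA replicate 2).

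The centred log2 CPM of Chac1 over the 4 libraries was compared with that of 11165 other genes with a mean of at least 2 CPM. Predicted genes, with Gm, Rik or LOC names, were then left out. The 5 nearest of the genes kept were Aldh1l2, Lbh, Trpv4, Crabp1 and Pqlc3. Their Euclidean distances were 0.0587, 0.0838, 0.129, 0.131 and 0.135. Aldh1l2, a mitochondrial folate enzyme, was at 13.72 and 14.57 FPKM in control siRNA and at 9.77 and 8.31 FPKM in Lkb1 siRNA libraries. It was thus the nearest of the genes kept and also 1 of the 3 ATF4 targets that passed without the block. Trpv4, a calcium channel, and Crabp1, a retinoic acid binding protein, had means of at most 3.38 CPM. The likeness is a description over 4 libraries and was not tested.

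**Figure D4:**
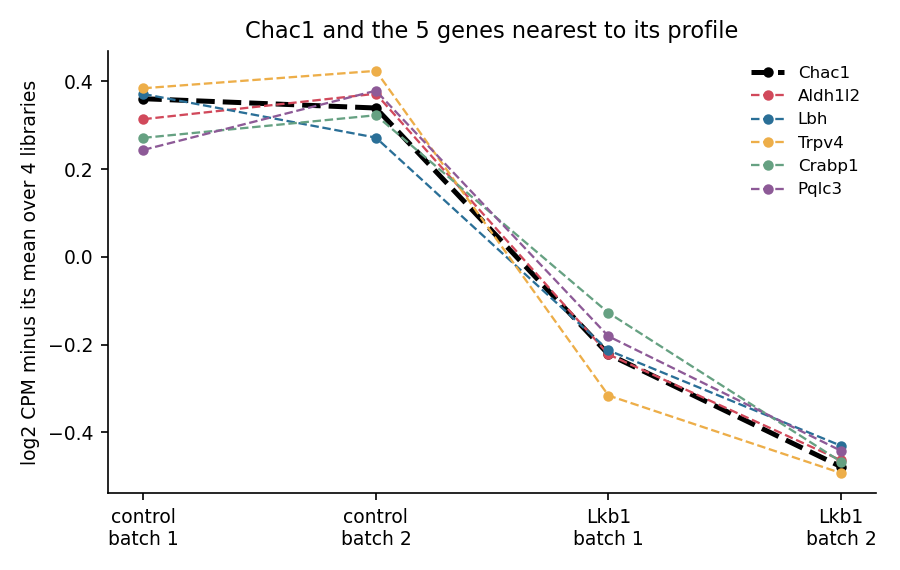
Log2 CPM of Chac1 (thick black line) and of the 5 genes nearest to it, predicted genes left out, each minus its mean over the 4 libraries. Lines join the values of a gene. All 6 genes are lower in both Lkb1 siRNA libraries, and Aldh1l2, at a distance of 0.0587, runs closest to Chac1.

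At the level of transcripts, Gpx4 and Txnrd1 each had more than 1 transcript with a sizeable share of the gene's count. The 10 genes had 19 listed transcripts, of which 18 were tested. None passed edgeR's test over all 34279 transcripts, without or with the replicate block, and neither did any other transcript (0% called in both fits). With the block the smallest edgeR adjusted p of any transcript was 0.925, so the lack of calls is no result about these transcripts. NM_026929, the only listed transcript of Chac1, had the same counts as the gene. With the block its edgeR adjusted p was 0.925, against 1.08e-11 in the gene fit. At an unadjusted p under 0.05 in edgeR's test without the block, 4 of these 18 and 2313 of all 34279 transcripts passed. With the block 4 and 1764 did. The 4 were NM_026929 of Chac1, NM_010295 of Gclc, NM_008162 of Gpx4 and NM_001042513 of Txnrd1 in either fit. Shares come from the authors' estimates of which transcript a read belongs to, and no error of that estimate was analysed here.

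For Gpx4 the transcript NM_008162 held 30.7 and 29.4% of the count in control siRNA and 26.9 and 26.8% in Lkb1 siRNA libraries, without overlap. NM_001367995 held 69.2 and 70.6% against 72.9 and 73.0%. The log2 fold changes were -0.29 for NM_008162 (SE 0.0995, edgeR adjusted p = 0.735) and -0.07 for NM_001367995 (SE 0.0745, edgeR adjusted p = 1.00). The minor transcript thus had the larger log2 fold change, though neither passed.

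For Txnrd1 the transcript NM_001042513 was at 62.19 and 58.66 FPKM in control siRNA and 78.95 and 71.58 FPKM in Lkb1 siRNA libraries (log2 fold change 0.27, SE 0.0819, edgeR adjusted p = 0.689). NM_015762 was at 20.20 and 13.38 against 13.38 and 13.74 FPKM (-0.36, SE 0.24, edgeR adjusted p = 1.00), with a single high library, control siRNA replicate 1. The shares of NM_001042513 were 70.7 and 77.1% in control siRNA and 79.1 and 77.8% in Lkb1 siRNA libraries. In GENCODE M21 both transcripts start inside the Txnrd1 window printed above. NM_001042514, which starts inside another of the 3 Txnrd1 windows, was at 5.86 and 4.29 against 7.46 and 6.67 FPKM (0.43, SE 0.215, edgeR adjusted p = 0.944).

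**Figure D5:**
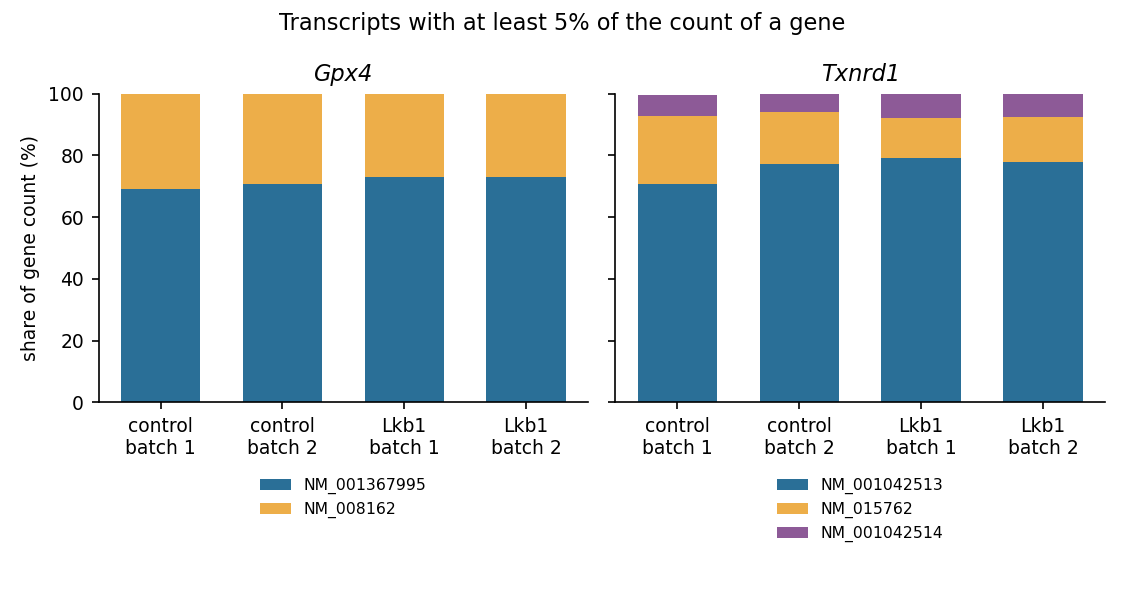
Share of the estimated count of Gpx4 and of Txnrd1 held by each transcript with at least 5% on average, by library, as stacked bars from 0 to 100%. The share of NM_008162 in Gpx4 is 30.7 and 29.4% in control siRNA and 26.9 and 26.8% in Lkb1 siRNA libraries, and in Txnrd1 control siRNA replicate 1 has the largest share of NM_015762, 22.2%.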

How the data were processed

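RNA-seq was done on 4 libraries of JoMa1.3 cells with read pairs of 150 bp, per the labels. The tools named in the submitters' processing notes, in no stated role or order, were RSEM 1.2.8, HISAT2 2.0.4 and Bowtie2 2.2.5, and the build was GRCm39. The annotation is not given in the sources used here. The values that the authors deposited as read counts were estimated counts per gene or transcript, 5.73 to 5.97% of them not whole, and the authors' deposited FPKM were relative to length and library size. Beyond these, 16 value columns of each deposited file (TPM, normalised counts and group means) were not used. In the columns used, 14 doubled decimal points of the gene table and 31 of the transcript table were read as 1 point.

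Counts were rounded to whole numbers. The test was that of edgeR 4.0.16 under R 4.3.3 (quasi-likelihood F-test, robust, TMM, filter with a minimum count of 10), with Benjamini-Hochberg adjustment over all 12222 genes and a threshold of 0.05. Standard errors came from the F statistic. The procedure was tested on simulated data. The labels do not say whether cultures were independent beyond number and batch, so p-values measure the spread between these libraries. In the fit with the block little of that spread can be measured gene by gene. Its p-values thus rest largely on a spread pooled over genes. The SE with the block was 0.0484 for Gpx1, 0.0485 for Gpx4 and 0.0484 for Txnrd1. The labels state that the number marks a shared batch, which pairs the libraries: deviations of same-batch libraries correlated at 0.259. Alternatives were the replicate block, library size scaling, DESeq2 1.42.0, limma 3.58.1 on log2(FPKM + 1) and log2(FPKM + 0.1), other filters, removal of a lowess trend with length (span 0.3), and leaving out each library. The members and lists were chosen with earlier results of these data known. The named genes were Stk11, the 10 members, up to 4 genes with the smallest p of each list, and the 5 genes nearest to Chac1, predicted genes left out. Chac2, Nfe2l2, Keap1 and genes named for passing with the block fall outside that rule. Motifs were searched with a script in windows from RefSeq GRCm38.p6, and no coordinate was converted to GRCm39.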

Additional observations from a re-analysis of the deposited data

How the results depend on the processing

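The number of genes called out of 12222, 10 in the edgeR test without the block, was 3 with library size scaling, 4 with a mean of at least 5 CPM, 45 when 1 count in any library sufficed, 47 with DESeq2, 124 with DESeq2 and batch, 1660 with the replicate block, 1516 with the block and the length trend removed, and 0 in either limma fit (FPKM on the log2 scale, pseudocount 1 or 0.1). Leaving out a library gave 66 to 253. Of the 10 members, none without the block, 1 was called by DESeq2 and under the filter of 1 count in any library (Chac1), 3 with the replicate block with or without the length trend removed (Chac1, Gclc and Txnrd1), and 0 to 1 when a library was left out. The block changed the call of no other member. Between batches, 2 members were called, and 0 with batch alone and no group term or with DESeq2. The latter gave no adjusted p to Chac1, Gclm, Gss, Hmox1 and Nqo1. Leaving out a library in the batch comparison was not run, as it leaves no residual degrees of freedom.

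Gpx1, at -0.04, turned to 0.0066 in the limma fit with pseudocount 1 and to 0.0066 in that with 0.1, to 0.014 with the length trend removed and to 0.012 with the block as well. Sod1 turned to 1.82e-04 and 1.07e-04 with the length trend removed, without and with the block. Cat turned to 0.0059 with library size and to 0.0096 and 0.0098 in the limma fits. Leaving out a library gave -0.073 to 0.15 for Gclm, -0.026 to 0.21 for Gsr, -0.14 to 0.066 for Gpx1, -0.15 to 0.23 for Hmox1, -0.041 to 0.13 for Nqo1, -0.10 to 0.049 for Cat and -0.14 to 0.0041 for the Gpx4 transcript NM_001367995. None of these values passed in any fit, and the cause was not tested. With 2 libraries a group the spread within a group limits what can be called, and Nqo1 also has few counts.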

Other observations

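Genes of iron handling, which Hmox1 feeds by releasing iron from haem, went in both directions. Of 11 tested none passed without the replicate block. With it Tfrc, the transferrin receptor that imports iron, and Ireb2, an iron-sensing regulator that stabilises its mRNA, passed as higher, and Hmox2, Blvrb and Fth1 as lower, against 6.59% and 6.99% of all genes. Tfrc was at 28.76 and 19.40 FPKM in control siRNA and at 37.09 and 31.18 FPKM in Lkb1 siRNA libraries, higher by 0.47 on the log2 scale (SE 0.163, edgeR adjusted p = 0.351, or adjusted p = 2.88e-19 with the block). Fth1, the ferritin heavy chain that stores iron, was at 3362 and 3335 against 3218 and 3117 FPKM (-0.13, SE 0.0597, edgeR adjusted p = 0.469, or adjusted p = 0.0233 with the block). With the length trend removed, Tfrc and Ireb2 passed with the block and none of the 3 lower genes did. DESeq2 with the block called none of the 11, 3 of which received no adjusted p, and gave Tfrc an adjusted p of 0.131.

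In the list of ferroptosis genes, 10 were tested. With the block Ncoa4 and Slc7a11 passed as lower, 20% against 6.99% of all genes, and Tfrc as higher, 10% against 6.59%. Ncoa4, the receptor that sends ferritin to the lysosome, was at -0.18 (SE 0.066, edgeR adjusted p = 0.358 without the block). Among 14 tested genes that supply NADPH, Aldh1l2 fell (log2 fold change -0.68, SE 0.0883, edgeR adjusted p = 0.0378). That call was lost with library size scaling (edgeR adjusted p = 0.0834), under a mean CPM filter of 5 (0.0692) and in both limma fits (0.293 and 0.265). Mthfd2l and Mthfd1, other folate enzymes, passed as higher with the block, 14.3% against 6.59% of all genes. Their log2 fold changes were 0.42 and 0.14 (SE 0.102 and 0.113, edgeR adjusted p = 0.201 and 0.675). With the length trend removed as well, Mthfd2l passed as higher and Aldh1l2 and Me1 as lower, while Mthfd1 did not pass. DESeq2 with the block called only Aldh1l2, as lower, with no adjusted p for 2 of the 14. Over all genes it called 124, 80 of them as lower.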
